A study of Mus musculus with 3 samples.

Results

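The miR-130 and miR-301 family was examined in small RNA libraries of the postnatal mouse heart through 3 mature miRNAs, namely miR-130a-3p (MIMAT0000141), miR-130b-3p (MIMAT0000387) and miR-301a-3p (MIMAT0000379). These members were picked out by their accession numbers, with no threshold on a measured value, though the family was chosen with earlier results of these data known. Each had 1 row, so that 3 of the 2049 rows of the count table were described, and 945 of the 2049 rows held at least 1 read. The samples, which the labels call hearts and the study cardiac ventricles, came from wild type C57BL/6 mice at postnatal day 1 (P1), day 7 (P7) and day 28 (P28), with 1 library per age, no transgene or treatment, and no statement of how many hearts entered a library. Counts summed over all rows rose with age, from 1944237 at P1 over 2465680 at P7 to 2842526 at P28. With 1 library per age there was no replicate check, and the intervals below cover counting error only unless an assumed variation between hearts is named, so each difference compares 2 libraries and not 2 ages.

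MicroRNAs (miRNAs) lower the output of messenger RNAs that carry matches to the seed, the short stretch near the 5′ end of the mature strand. Members of one seed family can therefore share targets, whichever genes they are cut from. The miR-130 and miR-301 family is known from vascular and metabolic studies, where miR-130a has been described in endothelial growth and members of the family in the control of the fat cell regulator PPARG. The surveyed weeks are those in which mouse cardiomyocytes leave the cell cycle.

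The mature sequences from RefSeq (GRCm38.p6) are shown because the shared seed defines the family and because the members must be told apart by their remaining bases. Capitals mark the seed, bases 2 to 8 from the 5′ end, and all 3 members were matched by name.
miR-130a-3p: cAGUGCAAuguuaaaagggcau
miR-130b-3p: cAGUGCAAugaugaaagggcau
miR-301a-3p: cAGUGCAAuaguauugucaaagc

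The first 9 bases were identical in the 3 members. Over their 22 bases, miR-130a-3p and miR-130b-3p differed at 2 positions only, U11A and A13G, counted from the 5′ end with the base of miR-130a-3p first. Over the same length miR-301a-3p differed from miR-130a-3p at 10 positions and from miR-130b-3p at 11. The source of a read was therefore set by 2 bases between miR-130a-3p and miR-130b-3p, and how the authors' counting treated reads with mismatches or several placements is not given in the sources used here. Exchange of reads between the members was not tested. No row outside the family had counts within 1% of those of a member in all 3 libraries.

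Of 1679 mature mouse names in the RefSeq table, 7 carried this seed, the 3 members included. The other 4 are shown because they have the same first 9 bases.
miR-130c: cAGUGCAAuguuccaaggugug
miR-721: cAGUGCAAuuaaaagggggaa
miR-6341: cAGUGCAAugauauugucacuau
miR-6389: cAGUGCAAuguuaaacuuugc

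The tables used here do not pair these names with accession numbers, so their rows were not identified and no level is given for them. The same holds for miR-301b-3p, for the 5p arms and for the miR-148 and miR-152 family. In that family the first 6 seed bases recur at bases 3 to 8, shifted by 1 position (miR-148a-3p, miR-148b-3p and miR-152-3p). MiR-301b-3p was not among the names found with the seed above, which does not show that it lacks the seed. The summed levels below are those of the 3 members and not of every miRNA with the seed.

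The 3 members come from separate places in the genome. The Mir130a hairpin lies at chr2:84741115-84741178 on the minus strand and overlapped no other gene in GENCODE M21, with 990 bases to the nearest protein-coding gene, Gm19426. The Mir301 hairpin, which gives miR-301a, lies at chr11:87113004-87113089 on the plus strand, inside an intron of Ska2 on the same strand, a gene for a subunit of the complex that ties spindle microtubules to kinetochores in mitosis. The Mir130b hairpin lies at chr16:17124061-17124142 on the minus strand, inside an intron of 2610318N02Rik on the same strand. The Mir301b hairpin overlaps the same gene and none of its exons, with 257 bases between the hairpins. The coordinates are those of GRCm38, the assembly that the authors used under its name mm10.

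The 3 members together were a minor component of the heart miRNAs at each age, and most of their reads were miR-130a-3p. Levels are given as CPM, counts per 1000000 of the counts summed over all rows of the library. Some rows repeat others, such as a pair of rows with the same mean of 72827 CPM and the same ratios. Another 14 were stem-loop rows. A read can therefore enter a column total more than once. The P1 library held 115 reads of the members together, or 59.1 CPM (95% Wilson interval 49.3 to 71.0). The P7 library held 152, or 61.6 CPM (52.6 to 72.3). The P28 library held 76, or 26.7 CPM (21.4 to 33.5). The P1 and P7 intervals overlapped, and the P28 interval lay below both.

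MiR-130a-3p, the most abundant member, ranked 226 among the rows by its mean of 38.9 CPM over the 3 libraries. It had 84 reads at P1, or 43.2 CPM (34.9 to 53.5). At P7 it had 121 reads, or 49.1 CPM (41.1 to 58.6), and at P28 it had 69 reads, or 24.3 CPM (19.2 to 30.7). Its P28 interval lay below those of both younger libraries.

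MiR-301a-3p, the member encoded in Ska2, had a mean of 5.90 CPM and rank 358. It had 16 reads at P1, or 8.23 CPM (5.07 to 13.4), and 19 reads at P7, or 7.71 CPM (4.93 to 12.04). At P28 it had 5 reads, or 1.76 CPM (0.751 to 4.12). The P1 and P7 libraries were alike within counting error, and the P28 interval did not reach either of theirs.

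MiR-130b-3p, which differs from miR-130a-3p outside the seed only, had the lowest mean, 4.43 CPM, and rank 380. It had 15 reads at P1, or 7.72 CPM (4.68 to 12.7), and 12 reads at P7, or 4.87 CPM (2.78 to 8.51). At P28 it had 2 reads, or 0.704 CPM (0.193 to 2.57), which is under the level of 3 reads in that library, 1.06 CPM. Its P28 interval also lay below those of P1 and P7. Between miR-130b-3p and miR-301a-3p the intervals overlapped at each of the 3 ages, so their order within a library was not resolved.

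**Figure D1:**
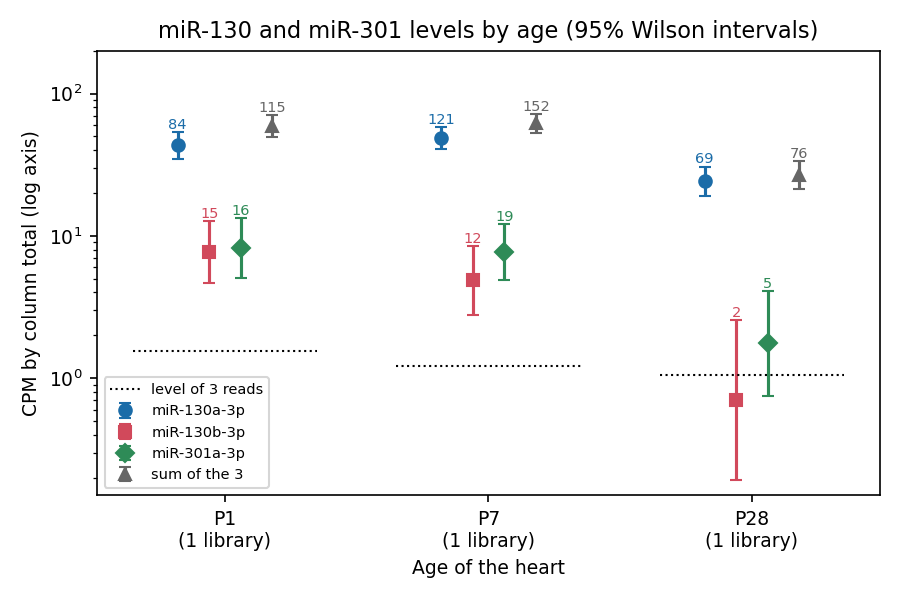
Level of each member and of their sum in CPM on a log axis at P1, P7 and P28, with 1 library per age, 95% Wilson intervals for counting error, the read number above each point and dotted lines at the level of 3 reads. MiR-130a-3p stands above the other 2 members at each age, and the points at P28 lie below those at P1 and P7, with miR-130b-3p at 2 reads.

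The first comparison was between P7 and P1. None of the 3 members differed at least 2-fold, the size of difference called here, and for each of them the interval of the ratio included no change. MiR-130a-3p was at 1.14 times its P1 level (95% Clopper-Pearson interval 0.853 to 1.52). MiR-301a-3p was at 0.936 times (0.456 to 1.95) and miR-130b-3p at 0.631 times (0.270 to 1.44). The sum of the 3 was at 1.04 times (0.813 to 1.34), so that a 2-fold change of the sum lay outside the counting interval, whereas a 2-fold decrease of miR-301a-3p or miR-130b-3p lay inside it.

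As a background, 22.4% of the 317 entries (rows whose mean reached 10 CPM) were at least 2-fold higher or lower at P7 than at P1. Rows that repeat others were counted as separate entries. Of the members, only miR-130a-3p reached that mean. With the minimum lowered to 1 CPM, which the 3 members reached, 29.3% of 526 entries were called.

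Between P28 and P1 the members were lower, to unequal extents. MiR-130b-3p was 11.0-fold lower at P28 (2.55 to 98.8), a ratio of 2 reads to 15 before scaling. MiR-301a-3p was 4.68-fold lower (1.64 to 16.3). MiR-130a-3p was 1.78-fold lower (1.28 to 2.48) and was not called at 2-fold. For each member the whole counting interval lay on the side of a decrease. Thus 2 of the 3 members were called lower, against 40.7% of the entries that reached 10 CPM and 43.3% of those that reached 1 CPM. The size for miR-130b-3p rests on these few reads, and raising the pseudocount from 0.5 to 5 reads moved its log2 ratio from -3.18 to -2.06.

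A decrease of 2-fold was thus common between these libraries. As log2 ratios (pseudocount 0.5 reads), the median entry with at least 10 CPM was at -0.64, miR-130a-3p at -0.83, miR-301a-3p at -2.13 and miR-130b-3p at -3.18. Relative to this median, miR-130a-3p was lower by only 0.19 (log2 difference -0.19), and its ratio lay near the middle of the distribution, with 43.8% of the 317 entries below it. Among the 526 entries with at least 1 CPM, 20.2% were below miR-301a-3p and 9.51% below miR-130b-3p. These positions describe entries of very unequal read numbers and carry no test.

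**Figure D2:**
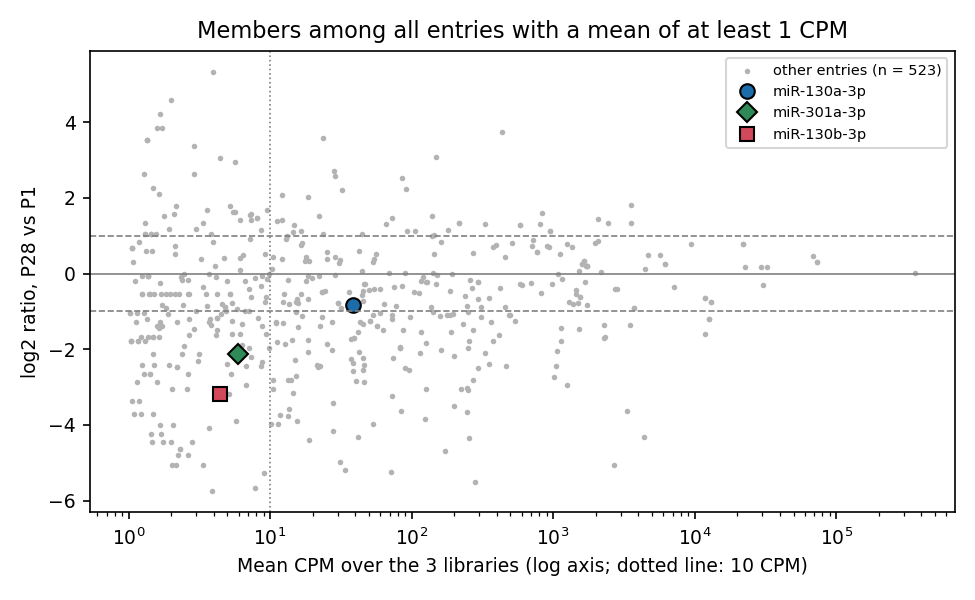
Log2 ratio of P28 against P1 (pseudocount of 0.5 reads) against the mean CPM over the 3 libraries on a log axis, for the 526 entries that reached 1 CPM. Dashed lines mark 2-fold and the dotted line marks 10 CPM. MiR-130a-3p (-0.83) sits within the main body of points, and miR-301a-3p (-2.13) and miR-130b-3p (-3.18) sit lower, left of the dotted line.

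Between P28 and P7 the 3 members were called lower. MiR-130b-3p was 6.92-fold lower (1.54 to 63.6), miR-301a-3p was 4.38-fold lower (1.58 to 15.01) and miR-130a-3p was 2.02-fold lower (1.49 to 2.76), just past the threshold. With a pseudocount of 5 reads the log2 ratio of miR-130b-3p moved from -2.53 to -1.49. Of the 9 member ratios in the 3 comparisons, 5 reached 2-fold and the counting intervals of 6 lay wholly below no change, with no adjustment for their number. With an assumed coefficient of variation between hearts of 0.4 and scaling by column totals, the intervals of 4 did so. All of these came from the comparisons with the P28 library, in which the median entry was lower as well. The share of all entries with an interval wholly below no change was not computed. Between P28 and P7, the share of entries called lower was 39.1% with at least 10 CPM and 41.6% with at least 1 CPM. The sum of the 3 was 2.31-fold lower than at P7 (1.74 to 3.08) and 2.21-fold lower than at P1 (1.64 to 2.996). Both comparisons use the P28 library. The 2-fold calls of the sum were lost under each of the 3 other scalings. With TMM, the log2 ratio of the sum was -0.52 against P1 and -0.64 against P7.

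At P28 the call of miR-130a-3p depended on the scaling, and the calls of the other 2 members did not under the 3 other scalings tried. With TMM, which places the typical entry near no change, the log2 ratio of miR-130a-3p became -0.21 against P1 (-0.69 to 0.27) and -0.45 against P7 (-0.91 to -0.020), and neither reached 2-fold. Under TMM miR-301a-3p was at -1.51 and -1.47 and miR-130b-3p at -2.56 and -1.97, each still at least 2-fold lower. With an assumed coefficient of variation between hearts of 0.4, the log2 interval against P1 was -2.45 to 0.78 for miR-130a-3p, -4.60 to -0.066 for miR-301a-3p and -6.98 to -0.85 for miR-130b-3p. Against P7 it was -2.62 to 0.59, -4.48 to -0.0023 and -6.34 to -0.13 for these members in turn. For the sum it was -2.75 to 0.45 against P1 and -2.80 to 0.39 against P7, so that no change lay inside for miR-130a-3p and for the sum in both comparisons. These intervals use column totals, and none was computed under another scaling. TMM moved the median entry up by 0.62 against P1 and by 0.56 against P7. These shifts exceed the distance from no change of the upper limits of miR-301a-3p, and of miR-130b-3p against P7. The real variation between hearts could not be estimated. In tissue of mixed cells, fewer cells of a type and less RNA per cell cannot be told apart.

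**Figure D3:**
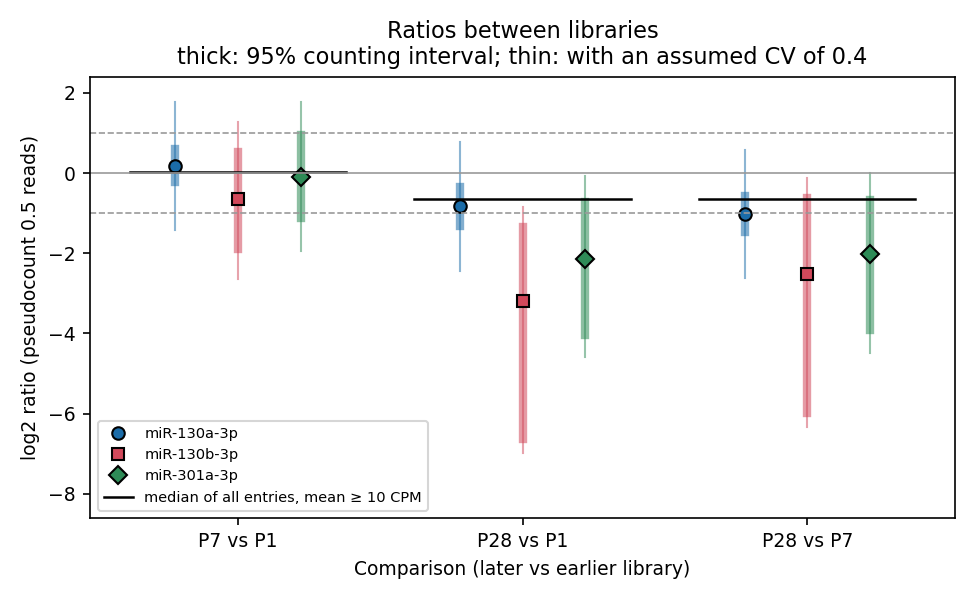
Log2 ratios of the 3 members in the 3 comparisons (points, pseudocount of 0.5 reads), with thick bars for the 95% counting interval, thin bars for that interval widened by an assumed coefficient of variation of 0.4, dashed lines at 2-fold and black lines at the median of entries with at least 10 CPM. The points of P7 against P1 lie between -0.65 and 0.18, and those of both comparisons with P28 lie below 0. MiR-130a-3p lies close to the median of -0.64 in P28 against P1 (-0.83). It lies further below the median of -0.64 in P28 against P7 (-1.01).

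MiR-130a-3p held a larger share of the members' reads in the P28 library than in the P1 library, with 1 library per age. Shares within a library do not depend on how libraries are scaled to each other. MiR-130a-3p made up 73.0% of the members' reads at P1 (84 of 115, 95% Wilson interval 64.3 to 80.3). Its share was 79.6% at P7 (121 of 152, 72.5 to 85.2), and by P28 it was 90.8% (69 of 76, 82.2 to 95.5). The P1 and P28 intervals did not overlap, and the P7 interval overlapped both.

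The share of miR-301a-3p was 13.9% at P1 (8.75 to 21.4), 12.5% in the P7 library (8.15 to 18.7) and 6.58% in the P28 library (2.84 to 14.5). The share of miR-130b-3p was 13.0% at P1 (8.07 to 20.4), 7.89% in the P7 library (4.57 to 13.3) and 2.63% in the P28 library (0.725 to 9.10). Each of these was lowest at P28, but the P1 and P28 intervals of each overlapped.

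The difference between members was also taken as a ratio of their reads, with an exact conditional interval. MiR-130a-3p had 5.60 times the reads of miR-130b-3p at P1, 10.1 times in the P7 library and 34.5 times in the P28 library. From P1 to P28 this ratio grew 6.16-fold (1.35 to 56.9). Against miR-301a-3p, miR-130a-3p had 5.25 times the reads at P1, 6.37 times in the P7 library and 13.8 times in the P28 library, a growth of 2.63-fold (0.859 to 9.60) whose interval includes no change.

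MiR-301a-3p and miR-130b-3p were not resolved from each other, as the ratio of their reads changed 2.34-fold from P1 to P28 (0.314 to 27.6). With the reads of these 2 members summed, which were 31 in the P1, 31 in the P7 and 7 in the P28 library, the ratio of miR-130a-3p to them grew 3.64-fold from P1 to P28 (1.45 to 10.3) and 2.53-fold from P7 to P28 (1.02 to 7.14). From P1 to P7 it changed 1.44-fold (0.781 to 2.65). The pooling of the 2 less abundant members was chosen after their reads were seen. This ratio is another form of the miR-130a-3p share given above and is not a separate result. These intervals do not include variation between hearts.

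**Figure D4:**
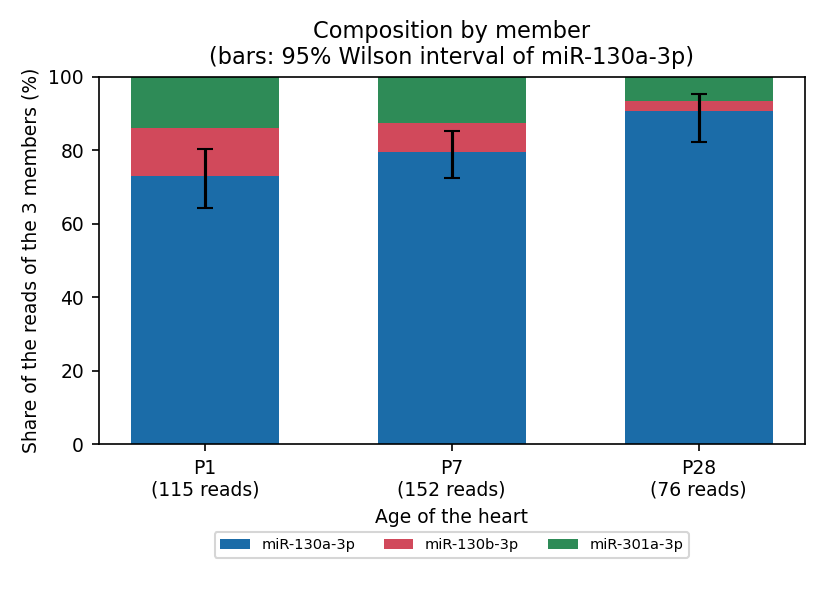
Share of each member in the reads of the 3 members at P1, P7 and P28, stacked to 100%, with the number of family reads under each bar and a black 95% Wilson interval for miR-130a-3p. The miR-130a-3p share goes from 73.0% at P1 over 79.6% at P7 to 90.8% at P28.

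Entries of similar course were searched among the 167 entries whose mean reached 100 CPM, by the distance between the pairs of log2 ratios of P7 and P28 to P1. The nearest to miR-130a-3p was MIMAT0000652, with 517 CPM in the P1, 578 CPM in the P7 and 279 CPM in the P28 library and a distance of 0.065. The next was the row of MIMAT0000663 that carries the suffix _1, with 279 CPM in the P1, 302 CPM in the P7 and 155 CPM in the P28 library and a distance of 0.072. Likeness within counting error was not particular to the nearest entries, and the counting intervals are wider for members with fewer reads. Of the 167 entries, 20 lay inside both counting intervals of miR-130a-3p, 54 inside those of miR-301a-3p and 38 inside those of miR-130b-3p.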

How the data were processed

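Small RNA libraries were made with a NEBNext kit from hearts at 3 ages, with 1 library each. The authors deposited raw read counts per miRNA accession. Per the labels' processing notes, bcl2fastq, TopHat and mm10 were used. The miRBase release, strand and the treatment of multiply placed reads are not given in the sources used here. Columns were matched to ages by the age code in their names.

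Counts were divided by column totals (CPM). Entries needed a mean of at least 10 CPM and were called at 2-fold or more. Main calls use the fold alone, and p-values of an exact binomial test on the reads, adjusted over the entries, entered 1 alternative for counts of calls. Wilson, Clopper-Pearson and exact conditional intervals are at 95% and cover counting error only, as there was 1 library per age. No molecular identifiers are stated, so copied reads could not be told apart and the intervals may be too narrow. The assumed variation of 0.4 was added to the counting interval in quadrature. The Clopper-Pearson interval and the 2-fold calls of P28 against P1 were tested on simulated counts without variation between hearts. The other intervals were not tested in this way. The members and lists were chosen with earlier results of these data known.

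The genes to name were the members, rows with their seed, opposite arms and stem-loops, a miR-148/152 and a miR-17 list, cell type markers, and the 2 nearest entries per member. As accessions and names were not paired here, no listed row other than the members was identified by name. For the same reason no marker list was computed, and the heart label was not checked against markers. The nearest entries were computed for each member and are given for miR-130a-3p only. Alternatives were TMM (edgeR 4.0.16), DESeq2 1.42.0 size factors, totals without the top 10 rows, other pseudocounts, filters and folds, and an exact binomial test. R 4.3.3, Python 3.11.15, scipy 1.17.1, pandas 2.3.3 and numpy 2.4.6 were used.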

Additional observations from a re-analysis of the deposited data

How the results depend on the processing

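Of 48 log2 ratios under other scalings or a pseudocount of 5 reads, 38 lay inside the counting interval of the value by column totals and 10 did not. Another 12 under the assumed variation could not move, as only their intervals change. These 10 were ratios of miR-130a-3p and of the sum. Against P1, miR-130a-3p was at -0.21 with TMM, -0.20 with DESeq2 size factors and -0.34 without the 10 most abundant rows, and against P7 at -0.45 with TMM and -0.36 with DESeq2. The sum was at -0.52, -0.51 and -0.66 against P1 in the same order, and at -0.64 and -0.55 against P7. Against P7 and without the 10 rows, miR-130a-3p (-0.67) and the sum (-0.86) also fell short of 2-fold. The call of miR-130b-3p against P7 kept its direction with DESeq2 size factors, though the shifted counting interval then reached from -5.34 to 0.026. TMM moved the median entry by 0.62 in P28 against P1 and by 0.56 in P28 against P7. The 9 shares did not change with 1 row per member, since each member has 1 row.

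By column totals, the entries called higher and lower numbered 34 and 37 (P7 vs P1), 39 and 129 (P28 vs P1), then 10 and 124 (P28 vs P7), and the settings below follow this order. Of 60 alternatives for these counts, 22 stayed within 1.5 times and 38 did not. Looser filters and folds can only raise such counts and stricter ones can only lower them, so this tally does not measure the scaling alone. TMM gave 76 and 83, then 40 and 75, in the comparisons with P28. DESeq2 size factors gave 76 and 83, then 46 and 65 there. Without the 10 rows, 65 and then 27 were higher there. The filter at 1 CPM gave 74 and 80, 83 and 228, then 44 and 219, and the filter at 100 CPM gave 18 and 18, 19 and 55, then 3 and 50. No filter gave 238 and 210, 193 and 392, then 130 and 409. Lowering the fold to 1.5 yielded 75 and 77 in the first comparison, and 59 and 33 higher in the later ones. Raising it to 4 yielded 2 and 2, 10 and 65, then 4 and 46. The exact binomial test changed none of the 6 counts.

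No paired analysis was possible because there is a single library at each age, and none could be left out. The limit is depth as well as replication, since miR-130b-3p and miR-301a-3p rest on 29 and 40 reads in all.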
